A study of Mus musculus with 60 samples.

Results

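Muribaculaceae is a family of Bacteroidales, the order of Gram-negative gut anaerobes that also holds Bacteroides, Alistipes and Prevotella. It was called S24-7 before it had a cultured member, and most of its members are still known from sequence alone. In the mouse its members live in the gut lumen, where they degrade complex glycans of plant and host origin and ferment them to short-chain fatty acids such as acetate and propionate. The family is among the most abundant of mouse stool and is not a known resident of the lung or the mouth.

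The family was followed through amplicon libraries of the V3-V4 stretch of the bacterial 16S rRNA gene. Its members were all features of the deposited count table whose lineage carries the family name, 258 of 8574 features. A feature is 1 distinct amplicon sequence, known in the files by a code. The deposited files used here pair no sequence with that code, so members are called Mur1, Mur2 and so on by rank of their mean share of prokaryote counts over the 10 groups, each group weighted equally. The leading feature, Mur1, has the code 2459dfd1bc9cad6486f97314e0070bee.

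The libraries came from male mice. PET mice received nanoparticles of polyethylene terephthalate, a polyester, by mouth through a gavage tube for 28 days, each day 0.5 mg in 0.1 ml. Control mice are labelled as not exposed, and the labels used here do not say whether they were given a vehicle. Stool taken after 1 week and stool, colon tissue, lung tissue and oral swabs taken at day 28 gave 6 PET and 6 control libraries each, 60 in all. The series' design text gives 12 mice in all, so the libraries of different sites and times come from the same animals. The labels do not give strain or age, and they tie no library to an animal of another site, so nothing was paired. Comparisons of sites and times therefore treat 24 libraries as independent that are not, and all p-values measure the spread between libraries.

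Prokaryote counts per library ran from 16513 to 1082777 in stool, 55824 to 278584 in colon, 10083 to 321277 in lung and 119446 to 428630 in oral swabs. Shares below are percentages of these counts. DNA of colon and lung was taken with a different kit from DNA of stool and oral swabs, so kit and site cannot be told apart between those kinds of sample. Run numbers of 4 libraries (day 28 stool control 6 and PET 6, lung control 5 and 6) stand apart from the rest in the labels. Polymerase chain reaction counts are not independent molecules, so all intervals and floors cover counting error only.

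The family held 7.67% of all prokaryote counts, 1309259 of 17066323. Its members carried the lineage at a classifier confidence of 0.711 to 1 (median 0.993), and 39 members under 0.9 held 8.48% of the family's counts. At genus rank Muribaculum, the first genus of the family to be grown in culture, was given to 6 members with 2.31% of the counts, and CAG-873 to 1 member; the other members repeat the family name there.

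The family's counts lay in few features. The 10 leading members held 57.1% of them and the 25 leading members 84.3%. Of the 258 members, 180 were detected in 1 library each and together held 0.395% of the family's counts. That is 69.8% of members, against 73.9% of the other prokaryote features. The 55 members found in 10 or more libraries held 97.3% of the counts, and the most widespread, Mur3, was in 52 of 60 libraries.

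The first question is how much of each community the family made up, by site and by exposure. At week 1 its share was 13.02, 8.88, 14.4, 7.41, 5.89 and 7.14% in the 6 PET stool libraries, against 10.3, 12.6, 19.9, 15.5, 7.80 and 10.6% in the 6 control libraries. At day 28 it was 12.99, 13.6, 10.99, 8.13, 20.8 and 10.2% in PET stool, against 12.4, 15.5, 9.46, 12.8, 7.57 and 13.1% in control stool. PET and control ranges overlapped at both times, and the family was above 5% in all 24 stool libraries.

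Colon tissue spread over 2 orders of magnitude. The share was 0.524, 0.988, 0.222, 0.140, 0.0878 and 7.52% in PET colon, against 10.5, 10.3, 7.50, 0.0892, 0.181 and 1.13% in control colon. A level like that of stool was seen in 1 PET and 3 control libraries. Helicobacter and Mucispirillum, genera of the mucus layer, are given beside these values: they held 78.4, 39.7, 91.1, 87.7, 55.3 and 48.7% of the same PET libraries, against 43.3, 12.4, 46.2, 96.5, 95.1 and 87.7% of the same control libraries. Their part in the family's share was not tested.

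Lung and oral swabs held little of the family. In lung the share was 0.120, 0.120, 0.161, 0.00572, 1.70 and 0.496% in PET libraries, against 0.182, 1.29, 0.251, 0.0954, 0 and 1.47% in control libraries. In lung control library 5 the family was not detected among 104634 counts, which allows a share of up to 0.00287%. In oral swabs the share was 0.251, 0.223, 0.227, 0.0705, 1.31 and 0.234% in PET libraries, against 0.300, 0.529, 0.317, 0.471, 0.367 and 0.150% in control libraries. PET and control values overlapped at both sites, and a single PET library stood above the rest of its group in each.

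**Figure D1:**
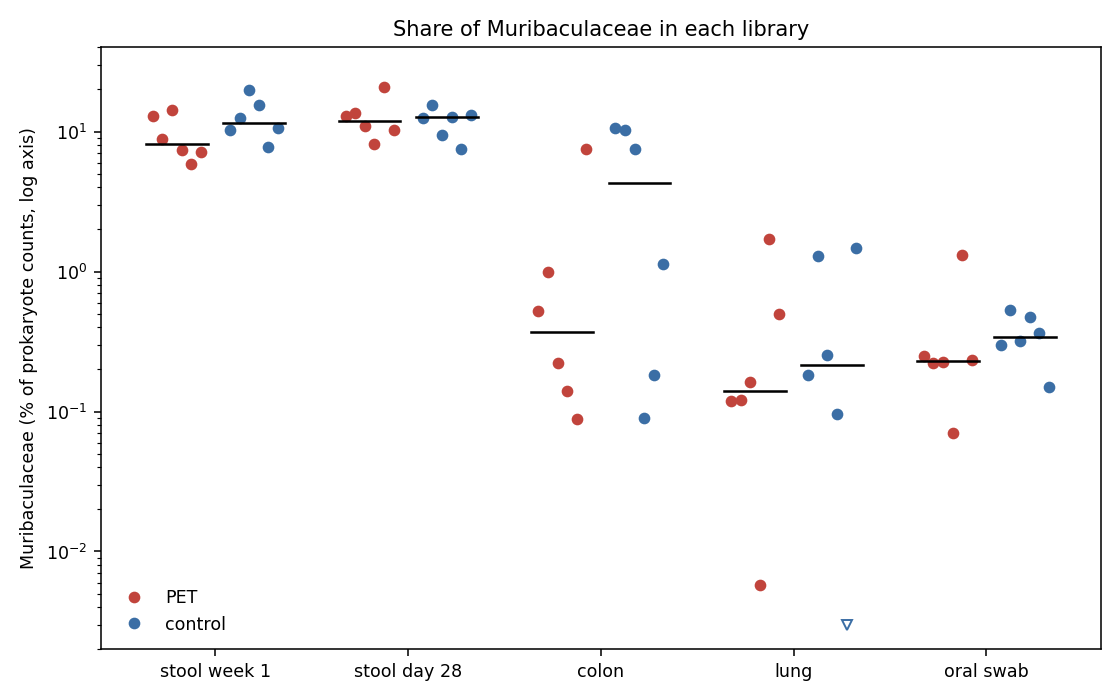
Share of Muribaculaceae in each of the 60 libraries, as a percentage of prokaryote counts on a log axis, with PET left of control at each site and lines at group medians. Stool libraries sit between 5.89 and 20.8%, colon libraries between 0.0878 and 10.5%, and the open triangle marks the lung control library with 0 counts, drawn at the bottom because a log axis has no 0.

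The effect of exposure was tested with edgeR's quasi-likelihood test on counts summed by family over the whole table, with TMM scaling, which sets libraries against each other by a trimmed mean of their ratios. Muribaculaceae did not pass an adjusted p of 0.05 at any site. Week 1 stool averaged 9.45 ± 3.45% in PET libraries and 12.8 ± 4.34% in control libraries (SD, n = 6 each). The log2 fold change was -0.64 ± 0.37 (standard error derived from the F test, as below), with an edgeR adjusted p of 0.543. Day 28 stool averaged 12.8 ± 4.40% in PET libraries and 11.8 ± 2.83% in control libraries, with 0.41 ± 0.24 and an edgeR adjusted p of 0.448. The values lay on opposite sides of 0 at the 2 times, and the test of that difference gave 1.03 ± 0.44 with an edgeR adjusted p of 0.145. Scaling by library totals gave 0.55 ± 0.37 for that difference (edgeR adjusted p = 0.453) and 0.11 ± 0.24 for the effect at day 28.

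Colon had the widest gap between the arms. The share averaged 1.58 ± 2.93% in PET libraries and 4.96 ± 5.05% in control libraries (SD, n = 6 each), with a log2 fold change of -1.80 ± 1.0 and an edgeR adjusted p of 0.236. PET library 6, at 7.52%, decided that call: without it the fold change was -2.76 ± 0.95 with an edgeR adjusted p of 0.0267. Across the 12 fits that leave out 1 library the value ran from -2.76 to -0.75, and with no filter on low counts it was -0.47 ± 1.0 (edgeR adjusted p = 0.712). The family's effect in colon against its effect in day 28 stool differed by -1.45 ± 0.89 (edgeR adjusted p = 0.336).

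In lung the share averaged 0.433 ± 0.641% in PET libraries and 0.548 ± 0.652% in control libraries (SD, n = 6 each), with a log2 fold change of -1.22 ± 1.34 and an edgeR adjusted p of 0.848. Scaling by library totals gave -0.34 ± 1.38, and no filter on low counts gave -0.60 ± 1.45. Without lung control library 2, which held 2850 family counts, the sign turned to 0.54 ± 1.51. Oral swabs averaged 0.387 ± 0.459% in PET libraries and 0.356 ± 0.134% in control libraries, with -0.16 ± 0.40 and an edgeR adjusted p of 0.906, and scaling by library totals gave 0.12 ± 0.80. In colon 24.6% of the 69 families tested passed the threshold for exposure, and 0% did in each of week 1 stool, day 28 stool, lung and oral swabs.

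Other families of Bacteroidales were read from the same fits. In colon, Porphyromonadaceae (log2 8.48 ± 1.92, edgeR adjusted p = 0.00279) and F082 (9.74 ± 2.72, edgeR adjusted p = 0.00934) were called higher in PET libraries. The other 6 families tested, Bacteroidaceae, Rikenellaceae, Prevotellaceae, Tannerellaceae, Marinifilaceae and Barnesiellaceae, did not pass. Both calls are from the TMM fit alone, and counts by library are not given for them. In that fit 17 of 69 families passed, against 5 of 47 with a stricter filter on low counts. Of Bacteroidales counts, Muribaculaceae made up 17.7 ± 21.3% in PET colon and 41.6 ± 21.1% in control colon (SD, n = 6 each). In stool it was 27.9 ± 8.22% in PET and 26.9 ± 5.35% in control libraries at day 28.

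**Figure D2:**
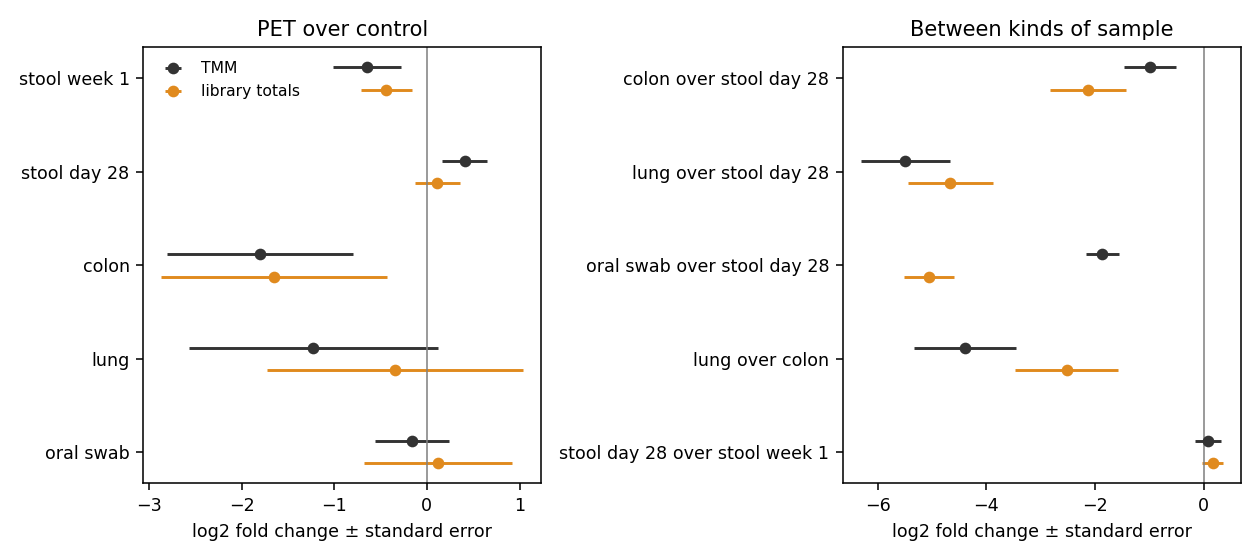
Log2 fold change of the family from edgeR, for PET over control at each site (left) and between kinds of sample (right). Bars are standard errors derived from the F test, with TMM scaling dark and library totals orange. The 5 exposure values lie between -1.80 and 0.41 with TMM, and lung and oral swab over stool lie below 0 under both scalings.

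Single members were tested in the same way on the whole feature table. No member passed an adjusted p of 0.05 for exposure: 0 of 59 tested in week 1 stool, 0 of 62 in day 28 stool, 0 of 42 in colon, 0 of 5 in lung and 0 of 28 in oral swabs. Of all features tested, edgeR called 0% in week 1 stool, day 28 stool, lung and oral swabs and 2.35% in colon (11 of 468). At an unadjusted p under 0.05 the members made up 1.69, 3.23, 2.38, 0 and 3.57% of those tested in those 5 comparisons (1, 2, 1, 0 and 1 members), beside 7.97, 5.83, 8.33, 11.9 and 6.30% of all features. DESeq2 called 0, 2, 1, 0 and 1 members, of 8, 21, 10, 5 and 7 features in all. The median log2 fold change of the members tested was -0.07, 0.15, -1.33, 0.79 and -0.38, beside 0.29, 0.06, 0.36, -0.19 and 0.03 over all features tested.

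The 5 members at an unadjusted p under 0.05, chosen after their values were seen, were all sparse in 1 arm, and in Mur51, Mur44 and Mur15 a single library held most of the counts. Mur51 was detected in 5 of 6 PET and 1 of 6 control stool libraries at day 28, with 754 counts in PET and 1 count in control libraries (log2 9.08 ± 2.33, edgeR adjusted p = 0.330). PET library 2 held 608 of those 754, and 146 were left without it. Mur44 had 1902 counts in 6 PET libraries and 8 counts in 3 control libraries (log2 7.91 ± 2.35, edgeR adjusted p = 0.330). PET library 3 held 1596 of those 1902, and PET libraries 1, 5 and 6 held 1 count each, fewer than the 2 or 3 of each control library that held it. At week 1, Mur51 was in all 6 PET and in 3 of 6 control stool libraries, with 1518 counts in PET and 853 in control. Of these, PET library 6 held 721 and control library 3 held 547. Mur44 was then in 4 PET and 3 control libraries, with 421 counts in PET, 216 of them in library 3, and 849 in control, 477 of them in library 2.

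In colon, Mur15 had 0 counts in the 6 PET libraries and 975 counts in 4 of 6 control libraries (edgeR adjusted p = 0.119). Control library 1 held 849 of them, and the other 3 libraries 40, 76 and 10. In oral swabs, Mur27 had 0 counts in the 6 PET libraries and 162 counts in 5 of 6 control libraries (edgeR adjusted p = 0.405). Mur28 had 235 counts in 3 PET libraries and 4928 counts in 5 control libraries of week 1 stool (log2 -4.56 ± 2.11, edgeR adjusted p = 0.605), 2102 of the control counts in library 6. None of the 5 passed the correction.

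The next question is which members made up the family at each site. Mur1 and Mur2 led most stool libraries. Mur2 was the most abundant member in 7 of 12 stool libraries at week 1, 6 of 12 at day 28 and 10 of 12 oral swabs, among them all 6 PET swabs and 4 of 6 control swabs. Mur1 led 4 stool libraries at week 1 and 1 at day 28. In week 1 control library 3 Mur1 alone was 61.6% of the family and 12.3% of all prokaryote counts.

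Mur2 varied from absent to dominant within a group. At day 28 it was at 2.42, 0, 0, 0.963, 0.383 and 2.14% in PET stool, against 0.464, 4.33, 0.407, 1.21, 0.954 and 2.73% in control stool. At week 1 it was at 1.97, 0.0825, 0, 0.823, 0.249 and 1.49% in PET stool, against 1.94, 0.0579, 0.159, 4.51, 2.74 and 1.39% in control stool. It had 0 counts in week 1 PET library 3 and day 28 PET libraries 2 and 3, which had 288601, 376216 and 509407 prokaryote counts, and at least 1 count in every control stool library.

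Mur1 was present in all 24 stool libraries. At week 1 it was at 0.685, 3.45, 6.36, 0.260, 0.0986 and 0.499% in PET stool, against 0.775, 2.82, 12.3, 1.52, 0.909 and 0.460% in control stool. At day 28 it was at 0.801, 1.51, 2.22, 0.310, 0.155 and 0.715% in PET stool, against 0.160, 1.43, 0.140, 0.401, 0.328 and 0.993% in control stool. In week 1 PET libraries 2 and 3 and control libraries 2 and 3, where Mur1 led, Mur2 was at 0.0825, 0, 0.0579 and 0.159%. Both could also be high in 1 library: day 28 control library 2 held 1.43% of Mur1 and 4.33% of Mur2.

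Mur3 and Mur4 were in every stool library. Mur3 was at 0.564, 1.42, 0.328, 0.439, 2.22 and 0.772% in PET stool at day 28, against 0.786, 1.31, 1.83, 0.962, 0.479 and 0.348% in control stool. Mur4 was at 0.884, 1.83, 0.346, 0.382, 0.576 and 0.267% in PET stool, against 1.29, 0.702, 0.128, 1.25, 0.260 and 2.61% in control stool. Of the 10 leading members Mur1, Mur3, Mur4, Mur5, Mur6, Mur7, Mur8 and Mur9 were detected in all 24 stool libraries, Mur10 in 23 and Mur2 in 21. In all, 16 members were in every stool library, among them Mur14, the main feature labelled Muribaculum.

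Muribaculum averaged 0.405 ± 0.127% in PET stool and 0.382 ± 0.20% in control stool at day 28 (SD, n = 6 each). It was at 0.157 ± 0.101% in PET stool and 0.185 ± 0.165% in control stool at week 1. It was detected in 4 PET and 6 control colon libraries, in all 12 oral swabs, in 1 PET lung library and in no control lung library.

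**Figure D3:**
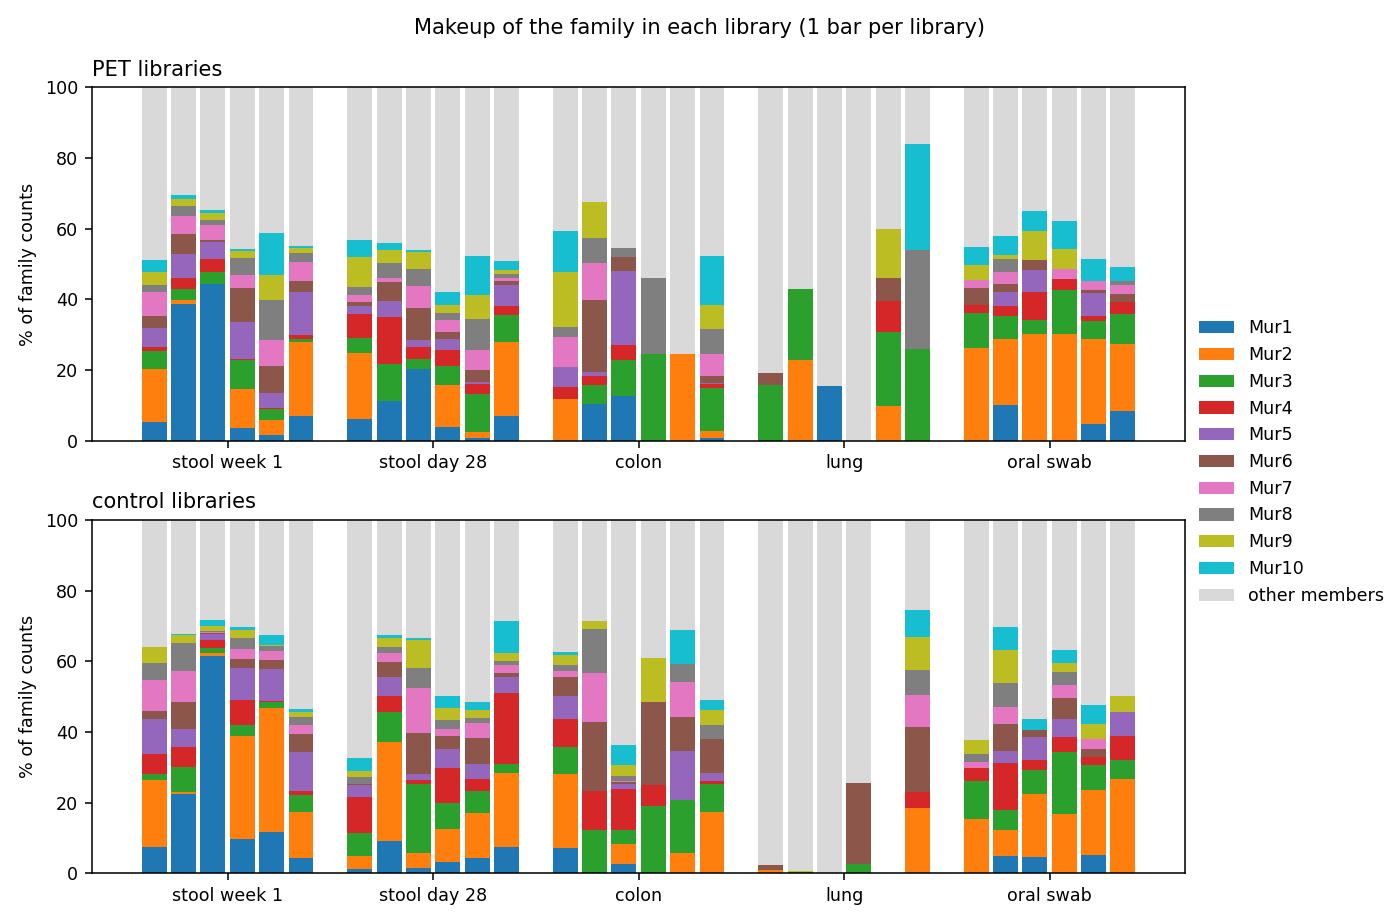
Makeup of the family in each library, as percentages of family counts, with PET libraries above and control libraries below. Colours mark Mur1 to Mur10 and light grey all other members; Mur2 (orange) is present in all 12 oral swabs, Mur1 (blue) reaches 61.6% in a week 1 control library, light grey fills most lung bars, and the empty place is the lung control library with no family count.

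The number of members and their evenness were described by library. Members detected per stool library at day 28 ran from 49 to 60 (median 55.5) in PET and from 36 to 69 (median 46.5) in control libraries. At week 1 they averaged 56.7 ± 24.8 in PET libraries, with 35 in the lowest, and 44.8 ± 12.4 in control libraries, from 24 to 61 (SD, n = 6 each). Colon libraries held 4 to 43 members in PET and 10 to 47 in control, lung libraries 1 to 9 in PET and 0 to 14 in control, and oral swabs 13 to 26 in PET and 17 to 28 in control.

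Libraries were also compared at an equal 500 family counts. Stool at day 28 had an expected 41.6 ± 3.10 members in PET and 37.7 ± 7.57 in control libraries (SD, n = 6 each), and at week 1 39.6 ± 7.65 in PET and 34.1 ± 7.28 in control. Oral swabs with at least 500 family counts had 21.6 ± 3.48 in PET (n = 4) and 23.6 ± 2.23 in control (n = 5). The 3 PET and 4 control colon libraries that reached 500 counts had 24.3 ± 11.9 and 31.2 ± 12.1. The 2 lung libraries that reached it, both control, had 4.0 and 4.87. Each PET and control pair differed by less than the larger of its SDs.

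The inverse Simpson number, the number of equally abundant members that would give the same evenness, averaged 16.8 ± 3.42 in PET and 15.5 ± 6.16 in control stool at day 28 (SD, n = 6 each). At week 1 it averaged 12.5 ± 6.07 in PET and 9.57 ± 4.92 in control stool. The leading member's share of the family was 16.02 ± 4.43% in PET and 16.8 ± 7.16% in control stool at day 28. At week 1 that share was 23.7 ± 14.4% in PET and 30.01 ± 17.3% in control stool. In lung it was 54.1 ± 29.8% in PET (n = 6) and 68.7 ± 32% in control (n = 5, without the library with no family count).

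Stool at day 28 was set against stool at week 1 with exposure arm as a term. The family did not pass the threshold: it averaged 12.3 ± 3.57% at day 28 and 11.1 ± 4.13% at week 1 (SD, n = 12 each), with a log2 fold change of 0.07 ± 0.24 and an edgeR adjusted p of 0.975, where 8.96% of the 67 families tested passed. Fitted alone, PET libraries gave 0.49 ± 0.31 (edgeR adjusted p = 0.349) and control libraries -0.37 ± 0.33 (edgeR adjusted p = 0.627). Of 62 members detected in at least 3 day 28 libraries and 60 in at least 3 week 1 libraries, 58 were shared, which is 93.5% of the day 28 list and 96.7% of the week 1 list. Members found in day 28 stool and in no week 1 stool library numbered 71, were in at most 2 libraries each and held 0.994% of the day 28 family counts. The 92 found in week 1 stool and in no day 28 stool library were likewise in at most 2 libraries each. They held 0.550% of the week 1 counts. These overlaps were not counted over all features, so whether the family stands apart in them was not tested.

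No member passed the correction between the times, 0 of 67 tested, and edgeR called 0% of the 964 features tested. At an unadjusted p under 0.05 there were 4 higher and 2 lower members at day 28, 8.96% of members tested beside 9.54% of all features, and DESeq2 called 1 member of 19 features in all. Mur1 had a log2 fold change of -1.77 ± 0.76 (edgeR adjusted p = 0.376), Mur3 1.23 ± 0.51 (edgeR adjusted p = 0.338), Mur4 1.58 ± 0.71 (edgeR adjusted p = 0.427) and Mur14 1.24 ± 0.58 (edgeR adjusted p = 0.492). Bray-Curtis distance between family makeups, which is 0 for equal and 1 for disjoint makeups, had a median of 0.521 between the times, 0.461 within day 28 and 0.487 within week 1. Between PET and control libraries its median was 0.458 at day 28, against 0.501 within PET and 0.452 within control.

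Sites were then set against day 28 stool. Here the scalings part, and shares are the plainer measure: TMM moved the median log2 fold change of all families tested to 4.28 for colon, 7.07 for lung and 7.14 for oral swabs over stool, while library totals gave 1.61, 7.89 and 3.94. Colon averaged 3.27 ± 4.31% against 12.3 ± 3.57% in stool (SD, n = 12 each). Its log2 fold change was -0.99 ± 0.48 with an edgeR adjusted p of 0.0805, so this test did not call it, where 53.8% of the 80 families tested passed. Scaling by library totals gave -2.13 ± 0.70 (edgeR adjusted p = 0.00834), and members with a confidence of at least 0.9 gave 0.00 ± 0.63 (edgeR adjusted p = 0.997). Fitted within 1 arm the value was smaller and did not pass, at -0.41 ± 0.93 in PET libraries (edgeR adjusted p = 0.723) and -0.39 ± 0.75 in control libraries (edgeR adjusted p = 0.729). An exact two-sided permutation test of the log2 share, added after the data were seen, gave an adjusted p of 0.00433 within PET and 0.0397 within control libraries (n = 6 against 6, adjusted over 10 tests).

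Lung and oral swabs fell below stool. Lung averaged 0.491 ± 0.619% and oral swabs 0.371 ± 0.323% (SD, n = 12 each), against 12.3% in stool. The log2 fold change was -5.49 ± 0.82 for lung (edgeR adjusted p = 8.04e-07) and -1.87 ± 0.30 for oral swabs (edgeR adjusted p = 8.33e-06). With library totals it was -4.66 ± 0.78 for lung and -5.05 ± 0.46 for oral swabs. The call for oral swabs was lost when PET libraries were fitted alone (-1.04 ± 0.54, edgeR adjusted p = 0.118). Every lung and oral library lay below every day 28 stool library, and 86.1% of families tested in lung and 77.8% in oral swabs passed the threshold in either direction.

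Lung was also set against colon. The log2 fold change was -4.39 ± 0.94 (edgeR adjusted p = 0.000436), where 46.6% of families tested passed, and with PET libraries alone it was -4.54 ± 1.31 (edgeR adjusted p = 0.0525). Library totals gave -2.52 ± 0.95 (edgeR adjusted p = 0.0165). The ranges of the 2 sites overlapped, and the added exact permutation test gave an adjusted p of 0.339 within PET and 0.176 within control libraries (n = 6 against 6). Marinifilaceae and Rikenellaceae, other gut families of the order, also fell in colon, lung and oral swabs against stool, while Barnesiellaceae, a gut family, and Porphyromonadaceae, which holds mouth anaerobes, rose at all 3 sites. Bacteroidaceae and Prevotellaceae did not pass against stool at any of the 3 sites. These calls of other families are from TMM fits alone, with no value by library totals. For Muribaculaceae in oral swabs TMM and library totals lay far apart. A family that did not pass may therefore still hold a lower share than in stool.

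Member by member, 60 of 62 tested fell in lung against stool, where edgeR called 90.2% of all 1157 features tested and 57.9% lower. Members entered the tests mostly through stool, where 62 were in at least 3 day 28 libraries. In lung 5 and in oral swabs 28 were, all of them among those 62. The filter thus favoured falls, so these counts cannot show a direction of their own. Features of the whole table could also enter through lung or the mouth, so their shares are not a like comparison. The largest fitted drops in lung were Mur12, Mur22, Mur24, Mur5 and Mur34, none of which had a count in any lung library. In oral swabs 26 of 62 fell and 2 rose, beside 56.1% of 1009 features called, 30.7% lower and 25.4% higher. The largest fitted drops there were Mur31, Mur25, Mur34, Mur32 and Mur35. The 2 that rose, Mur63 and Mur75, are small: Mur63 averaged 0.00211 ± 0.00342% in PET and 0.00535 ± 0.00414% in control swabs, against 0.00294 ± 0.00274% in PET and 0.00449 ± 0.00339% in control stool. With library totals neither rose, and 59 of 62 members fell, beside 62.1% of all features called lower in that fit.

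In colon 1 of 63 members passed, beside 19.1% of 960 features called and 14.7% lower. It was Mur78, with 0 counts in 12 colon libraries (edgeR adjusted p = 0.0102). It passed the filter through stool alone, with counts in 3 PET and 2 control libraries, so only a fall could be seen. Most of those counts lay in PET library 2 and control library 6, without which 9 counts were left in PET and 25 in control stool at day 28. Against colon, 38 of 43 members fell in lung, beside 54.7% of 844 features called and 36.1% lower. The filter favoured falls here too, because 42 members were in at least 3 colon libraries and 5 in at least 3 lung libraries. The largest fitted drops were Mur12, Mur5, Mur17, Mur19 and Mur22. How many members passed depended on the scaling and the arm, as given under the processing below.

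Replacement of members was described by whether a site's members were also found in stool. Of the family's colon counts, 99.9% in PET and over 99.9% in control libraries lay in members also found in stool. For oral swabs this was 99.8% in PET and 96.9% in control libraries. In lung it was 68.6% of 662 counts in PET and 9.92% of 3821 counts in control libraries. The share of family counts in members of no stool library was 78.2, 28.6, 84.6, 100, 0 and 6.00% in PET lung, against 91.8, 99.1, 100, 11.5 and 3.30% in the 5 control lung libraries that held the family. Totals of the family in lung are small, from 3 to 336 counts in PET and from 61 to 2850 in those 5 control libraries.

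Of the 10 members that led a lung library, 5 were found in that library alone. Those named here outside the rule were chosen after their values were seen. Mur39 had 2812 counts in lung control library 2, 98.7% of the family there, and elsewhere 82 counts in 2 control oral swabs. Mur66 had 537 counts in lung control library 1, 91.8% of the family there, and none elsewhere. Mur64 (75.4% of the family), Mur70 (62.6%), Mur72 (74.1%) and Mur114 (100%, 3 counts) each led 1 lung library and were seen in no other library. The 11 lung libraries with the family had 10 different leading members, with ties for the lead in PET library 2 and control library 6, against 3 in 12 oral swabs.

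Of the 39 members detected in lung, 15 were in no stool library and 10 in no other library at all. The same counts were not made for all features of lung, so they cannot be called particular to the family. Over the whole series, 69.8% of members and 73.9% of other prokaryote features were detected in 1 library. Lung control library 2 alone held 2850 of 4483 lung family counts. Without it, a value added after the data were seen, members also found in stool held 36.4% of control and 49.4% of all lung family counts, against 9.92 and 18.6% with it. For other families of lung, features of no stool library held 91.9% of Prevotellaceae counts in PET and 53.2% in control libraries, 32.7% of Rikenellaceae counts in PET and 18.7% in control libraries, and 9.01% of Bacteroidaceae counts in PET and 12.2% in control libraries. For Muribaculaceae it was 31.4% in PET and 90.1% in control libraries. These are pooled counts, and lung PET library 1 held 20807 and control library 2 37461 counts of Prevotellaceae. Medians over libraries were 67.5% in PET and 81.4% in control for Prevotellaceae, and 36.9 and 21.9% for Rikenellaceae. They were 4.98 and 8.17% for Bacteroidaceae, and 53.4 and 91.8% for Muribaculaceae. The difference between families was not tested.

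Marker genera of other sources are given beside these values. Genera common in reagents and the environment, on the list given in the methods, held 11.8, 23.8, 9.57, 6.22, 30.6 and 7.11% of PET lung libraries and 2.73, 2.16, 29.5, 9.63, 0.913 and 5.30% of control lung libraries, against at most 1.31% in day 28 stool. Colon libraries, whose DNA was taken with the same kit as that of lung, held 0.255 to 3.97% in PET and 0.185 to 5.12% in control. Lung control libraries 1, 2 and 5 lay within that colon range. The part of these genera was not tested. Lung control library 5 had 72.0% gut marker genera and 47.1% Bacteroidaceae and no Muribaculaceae count. In day 28 stool the family made 12.2 to 41.4 counts for every 100 gut marker counts, and in lung 0.0444 to 5.95 in PET and 0 to 3.62 in control libraries. In colon it made 0.768 to 21.1 in PET and 10.7 to 56.7 in control libraries. For oral swabs the range was 1.05 to 13.7 in PET and 6.02 to 16.2 in control libraries, so low values were not confined to lung.

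**Figure D4:**
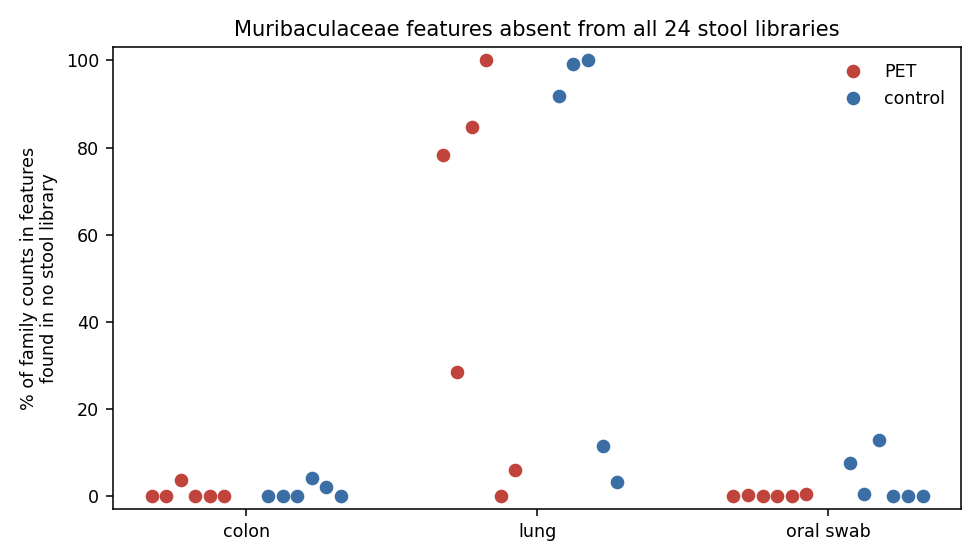
Percentage of each library's family counts that lies in features found in none of the 24 stool libraries, for colon, lung and oral swabs, with PET left of control. Colon and oral points stay between 0 and 12.8%, while lung points run from 0 to 100% in PET and from 3.30 to 100% in control libraries.

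Widespread members of colon and oral swabs were those of stool. All 42 members found in at least 3 colon libraries and all 28 found in at least 3 oral swabs were on the day 28 stool list of 62, of which they make up 67.7% and 45.2%. In lung 5 members reached 3 libraries, Mur3, Mur6, Mur2, Mur18 and Mur9, and all 5 were on the stool list. The same overlaps were not counted over all features, so they cannot be called particular to the family. Mur3, detected in 6 lung libraries, is the most widespread member there as in the whole series.

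Single colon libraries could be set beside single stool libraries by makeup, a description chosen after the data were seen. Of the 7 colon libraries with at least 500 family counts, all 7 had their nearest day 28 stool library in their own arm. Colon PET library 6 lay at a Bray-Curtis distance of 0.0981 from stool PET library 5, and the next nearest stool library was at 0.438. Colon control library 1 lay at 0.139 from stool control library 2, with the next at 0.281, and colon control library 3 at 0.173 from stool control library 1, with the next at 0.354. The other colon libraries lay farther from their nearest stool library. Colon PET library 1 lay at 0.510 from stool PET library 1, with the next at 0.540. Colon PET library 2 lay at 0.419 from stool PET library 3, with stool control library 3 next at 0.474. Colon control library 2 lay at 0.424 from stool control library 3, with stool PET library 3 next at 0.544. Colon control library 6 lay at 0.354 from stool control library 5, with the next at 0.443. The labels do not say whether any of these pairs is of 1 animal. Of 9 oral swabs, 7 were nearest to stool PET library 6, whichever their arm, at 0.228 to 0.368.

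Some members kept a narrow ratio to each other in the stool libraries that held both, found by comparing the 25 leading members after the data were seen. Of 294 pairs that shared at least 12 stool libraries at 20 counts or more, 8 had a standard deviation of the log2 ratio under 0.5, against a median of 1.87. Mur5 to Mur13 was 1.92 on average over all 24 stool libraries and never left 1.70 to 2.23. Mur5 to Mur15 averaged 2.07 (1.83 to 3.05) and Mur13 to Mur15 1.08 (0.897 to 1.70) over the same libraries.

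A second set was Mur12, Mur22 and Mur24. Mur12 to Mur22 averaged 2.08 over 17 stool libraries (1.39 to 2.45), Mur12 to Mur24 2.25 over 14 (1.92 to 2.74) and Mur22 to Mur24 0.990 over 15 (0.548 to 1.24). Mur10 to Mur18 averaged 2.22 over 21 stool libraries (1.28 to 3.03), and Mur8 to Mur19 2.76 over 23 (2.02 to 5.27). Stool libraries with 1 member of the pair and not the other numbered 5 for Mur12 and Mur24, 4 for Mur22 and Mur24, 2 for Mur10 and Mur18 and 1 each for Mur12 and Mur22 and for Mur8 and Mur19. The members share library and depth, so these ratios are descriptions.

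In colon the pooled ratios were close to those of stool, with some libraries holding 1 member of a pair alone. Pooled over colon, Mur5 to Mur13 was 2.17 (2109 and 971 counts, both in 3 libraries and Mur5 alone in 5), Mur12 to Mur22 2.17 (2178 and 1003 counts) and Mur10 to Mur18 2.42 (3913 and 1614 counts). In oral swabs the pooled ratio was 1.60 for Mur5 to Mur13 and 2.55 for Mur12 to Mur22. The 5 swabs with both Mur5 and Mur13 lay at 2.03 to 4.69, while 2 held Mur5 alone and 4 Mur13 alone. The 7 with both Mur12 and Mur22 lay at 1.44 to 4.37. Pooled over swabs, Mur5 to Mur15 was 1.35, Mur13 to Mur15 0.845 and Mur22 to Mur24 1.23. Mur12 to Mur24 was 3.14 and Mur8 to Mur19 1.28, each with both members in 2 swabs. For Mur10 to Mur18 no oral or lung library held both. Oral swabs held 556 counts of Mur10 in 10 libraries and 13 counts of Mur18 in another, a pooled ratio of 42.8. In lung, Mur18 had 98 counts in PET library 5, 10 in PET library 2 and 5 in control library 2, and Mur10 had none in those 3. Mur10 had 15 counts in lung PET library 6 and 16 in control library 6, which held no Mur18.

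**Figure D5:**
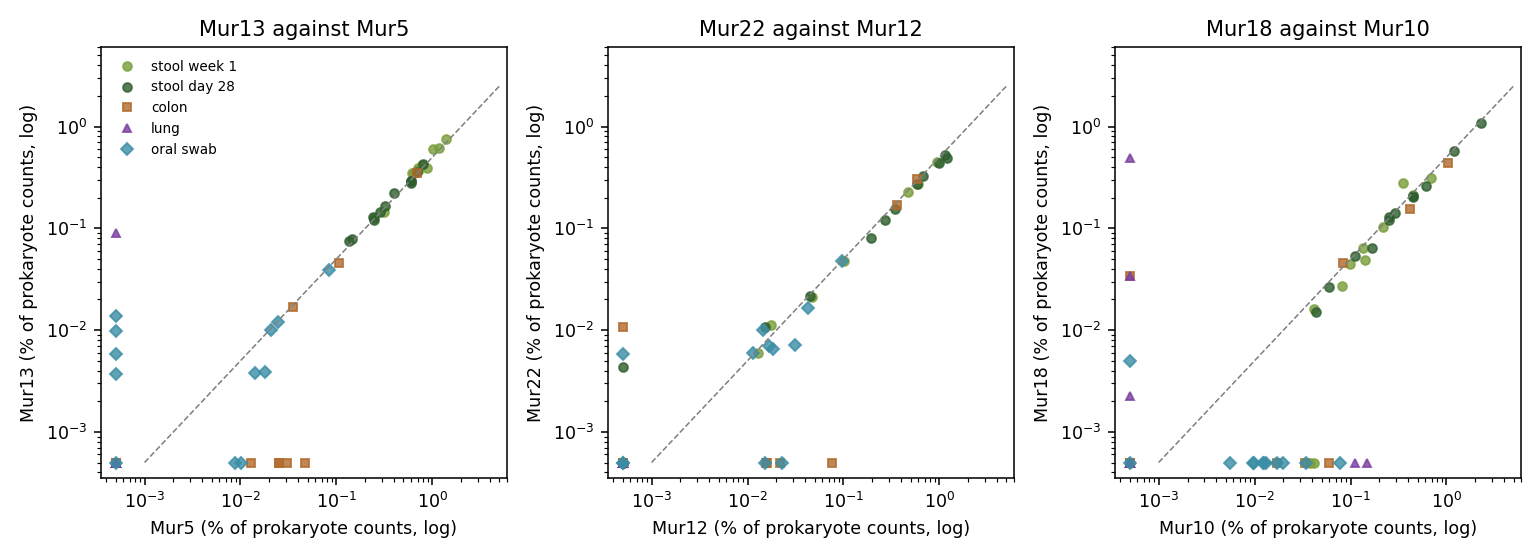
Share of Mur13 against Mur5, Mur22 against Mur12 and Mur18 against Mur10 in every library, as percentages of prokaryote counts on log axes, coloured by kind of sample; the dashed line marks a ratio of 2 and points at 0 are drawn on the left or lower edge. Stool libraries that hold both members lie at ratios of 1.70 to 2.23, 1.39 to 2.45 and 1.28 to 3.03. On an edge lie 1 stool library with Mur22 and no Mur12 and 2 with Mur10 and no Mur18. Libraries with neither member lie in the lower left corner. For Mur18 against Mur10 all lung and oral points with a count lie on an edge.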

How the data were processed

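Counts are the authors' deposited whole numbers per feature and library, raw, from a biom file per the file headers. Per the submitters' processing notes, tools were cutadapt and Bowtie2 and a build was GRCm39, without version or role. The denoiser, the classifier and its database were not stated in any source used here. The deposited taxonomy table pairs each lineage with the authors' confidence, a fraction between 0 and 1. Of 8574 features, 7922 prokaryote features were kept, with 99.3% of counts. Features without a lineage (619), chloroplasts, mitochondria and eukaryotes were left out. Library totals ran from 10543 to 1083575 counts.

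Whole tables of families and of features were fitted with edgeR 4.0.16 (TMM, quasi-likelihood F test, Benjamini-Hochberg, threshold 0.05), for rows with 10 counts in all and a count in 3 libraries. Each exposure fit had 12 libraries, and each site or time fit 24 with exposure arm as a term. Numbers of members, dominance and overlaps were described without tests. Members tested are those that passed the filter. Standard errors of edgeR fold changes were derived, as the absolute log2 fold change divided by the square root of the F statistic. Exact permutation tests (SciPy 1.17.1) used log2((family counts + 0.5)/(library total + 1)). The steps were tested on simulated data, with fold sizes enlarged after a first run recovered few changes; at the spread of these libraries many such changes of single features were still missed, so a count of 0 does not show that members were alike. Alternatives were TMMwsp, library totals, DESeq2 1.42.0, other filters, confidence of at least 0.9, and libraries or arms left out.

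Site markers were, for the gut, Lachnospiraceae, Oscillospiraceae, Bacteroides, Alistipes, Odoribacter and the Clostridia vadinBB60 group; for mucus Helicobacter and Mucispirillum; for the mouth Muribacter, Rodentibacter, Streptococcus, Gemella and Neisseria; and for reagents or the environment Ralstonia, Bradyrhizobium, Burkholderia-Caballeronia-Paraburkholderia, Sphingomonas, Methylobacterium-Methylorubrum, Pelomonas, Delftia, Acinetobacter, Pseudomonas, Cutibacterium and Leifsonia. Mouth markers made up 40.8 to 95.5% of PET oral swabs and 81.9 to 93.7% of control oral swabs. Members and lists were chosen with earlier results of these data known. Named members are the 10 leading ones, the leader of each group, and up to 5 per direction past the threshold, with exceptions marked.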

Additional observations from a re-analysis of the deposited data

Results flagged for a closer look

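In groups of 6 libraries (5 in lung control for measures within the family), a library was set aside for a closer look where its gap to the next was large against the range of its group by Dixon's test. Of 40 sets of values examined, 5 met this. Chance gives about 1 in 20 where values are normally spread. The values were not put on a log scale, and family shares in colon and lung spread over orders of magnitude. That rate therefore need not hold for them.

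The family's share was highest in colon PET library 6 at 7.52%, with the next PET library at 0.988%. It was highest in lung PET library 5 at 1.70%, with the next at 0.496%, and in oral PET library 5 at 1.31%, with the next at 0.251%. In week 1 stool, PET library 6 held 40.3% of the 258 members with the next at 22.5%, and it also had the most prokaryote counts, 1082777. In lung, control library 6 had an inverse Simpson number of 9.19 with the next at 2.42, and its run number in the labels stands apart. The 4 tests of a different exposure effect between sites or times did not pass, with the lowest edgeR adjusted p at 0.145.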

How the results depend on the processing

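No paired analysis was possible because the labels carry no replicate numbers and tie no library to an animal. For exposure, the family's value turned sign in lung with the exact permutation test (0.29, adjusted p = 0.885) and in oral swabs with TMMwsp (0.10) and library totals (0.12). Leaving out 1 library gave -0.91 to -0.30 in week 1 stool, -0.00072 to 0.50 in day 28 stool, -2.76 to -0.75 in colon, -2.62 to 0.54 in lung and -0.25 to 0.032 in oral swabs. The difference of the effect in oral swabs and stool turned to 0.0056 with library totals. Members called for exposure remained 0 in all fits that left out 1 library; DESeq2 called 2 in day 28 stool and 1 each in colon and oral swabs, of 21, 10 and 7 features called in all, and no filter gave 1 of 31 in day 28 stool. The value in day 28 stool was 0.063 with TMMwsp, 0.11 with library totals and 0.20 with the stricter filter. In colon it was -0.98 with a confidence of at least 0.9 and -1.19 with DESeq2.

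Colon over stool passed with library totals (-2.13), DESeq2 (-2.04), the stricter filter (-1.52), no filter (-1.43), without the 4 libraries whose run numbers stand apart (-1.44) and by exact permutation within PET (-4.70) and control libraries (-2.87), and was 0.0020 with a confidence of at least 0.9. It did not pass with TMMwsp (-1.47, adjusted p = 0.0666) or in edgeR fits of PET (-0.41) or control libraries alone (-0.39). Oral swab over stool was -3.95 with TMMwsp, -4.73 with DESeq2 and -1.19 with the stricter filter, and did not pass with PET libraries alone (-1.04), nor did lung over colon (-4.54; permutation -1.61 in PET and -3.64 in control libraries). Day 28 over week 1 stool was -0.022 with TMMwsp, -0.042 with the stricter filter, -0.37 with control libraries alone and -0.087 by permutation in control libraries, against 0.49 with PET libraries alone, 0.45 by permutation in PET libraries and 0.31 with a confidence of at least 0.9. Members called in colon over stool were 5 of 203 features called in all with DESeq2, 0 of 143 with the stricter filter, 4 of 177 in PET and 0 of 6 in control libraries alone. Members called in lung over stool were 32 of 566 in control libraries alone. In oral swabs over stool they were 48 of 724 with TMMwsp, 48 of 531 with DESeq2, 59 of 817 with library totals, 57 of 1900 with no filter, 15 of 236 in PET and 8 of 149 in control libraries alone. In lung over colon they were 16 of 164 with DESeq2, 21 of 162 with the stricter filter and 24 of 216 in control libraries alone. In PET libraries alone they were 8, for which the features called in all are not given here. Day 28 over week 1 stool gave 1 of 19 with DESeq2 and 3 of 33 with no filter. In each such pair of numbers the first is members called and the second all features called in that fit. The numbers tested changed with filter and arm and are not given here, so these counts are not shares of the members or features tested. They cannot show whether members were called more often than other features. The cause of the differences between settings was not tested. Depth limits lung, where the family had at most 336 counts in PET libraries.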
